A study of Mus musculus with 8 samples.

Results

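Desert peaks are the ATAC-seq peaks that lie farthest from genes: peaks on chromosomes 1 to 19, beyond position 6000000, whose summit is over 500 kb from every protein-coding gene of the RefSeq GRCm38.p6 table. They were 50654 of the 632365 autosomal peaks listed in 8 libraries. ATAC-seq records where the transposase Tn5 cuts chromatin more often than around it, and each library has its own peak list. The libraries came from amygdala neurons of male C57BL/6J mice. Guides against Rosa26, the control (sgRosa, n = 4), or against Nr2f2 (sgNr2f2, n = 4) had been given to the amygdala by AAV more than 2 weeks before behaviour. Mice of both groups went through tube restraint (7 days), fear conditioning (1 day) and extinction (3 days), so there is no unstressed group. Neurons were then enriched with papain digestion and a magnetic kit that removes other cells. The labels give neither the age of the mice, the Cas9 source, the fraction of neurons that took up virus nor whether 1 library is 1 animal, so the p-values measure the spread between these libraries.

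Gene deserts are long stretches without protein-coding genes. They are typically poor in G and C, replicate late and often lie in closed, lamina-associated chromatin, yet some hold enhancers that act over long distances on a flanking gene, often one for development or cell adhesion. Many deserts are bordered by large genes for synaptic adhesion. Nr2f2 encodes COUP-TFII, an orphan nuclear receptor that binds DNA at repeats of AGGTCA, and its relative Nr2f1 encodes COUP-TFI. Both genes lie beside deserts.

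The rule gave 242 deserts with a summed length of 199.7 Mb, which is 8.51% of the 2346.4 Mb considered. All positions are mm10 (GRCm38), and a desert is named by the gene on either side, with its ends set 500 kb away from those genes. The longest measured 3.542 Mb and the median 0.5013 Mb. Deserts of at least 0.5 Mb numbered 121 and held 172.6 Mb. Deserts are free of protein-coding genes only: 1190 non-coding genes lie in them, and 3 deserts hold gene segments of antigen receptors.

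The desert sequences at hand are the starts of non-coding genes; those of other desert regions are not printed here. RefSeq gives 228 promoter windows there (250 bases before to 50 after the start, 203 genes, GRCm38.p6), of which 41 overlapped a peak. Peaks of 2 libraries overlapped 6 of them, and none had more. The share of all promoter windows that overlap a peak is not given here, so these counts are not set against a background. The desert windows were poorer in G and C than promoters at large, with a median of 42.33% against 53% over all 30523 windows. The motif AGGTCA, read on both strands (TGACCT on the other), was in 17.54% of desert windows and in 16.26% of all windows. A match is a description of the letters, and 9 of the 41 windows with a peak held one. The 2 windows shown had the highest mean −log10 p among the 6, 1 with peaks in sgRosa and 1 with peaks in sgNr2f2 libraries. Capitals mark bases inside a listed peak, 5′ to 3′ along the gene.
Gm33042: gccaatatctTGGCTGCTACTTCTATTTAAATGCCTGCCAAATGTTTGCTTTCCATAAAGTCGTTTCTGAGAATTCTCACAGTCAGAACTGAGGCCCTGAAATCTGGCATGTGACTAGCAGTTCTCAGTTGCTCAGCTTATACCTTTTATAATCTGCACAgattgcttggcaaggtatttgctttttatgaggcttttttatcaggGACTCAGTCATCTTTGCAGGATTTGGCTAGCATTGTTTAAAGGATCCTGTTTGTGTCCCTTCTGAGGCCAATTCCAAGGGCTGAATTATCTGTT
Gm40175: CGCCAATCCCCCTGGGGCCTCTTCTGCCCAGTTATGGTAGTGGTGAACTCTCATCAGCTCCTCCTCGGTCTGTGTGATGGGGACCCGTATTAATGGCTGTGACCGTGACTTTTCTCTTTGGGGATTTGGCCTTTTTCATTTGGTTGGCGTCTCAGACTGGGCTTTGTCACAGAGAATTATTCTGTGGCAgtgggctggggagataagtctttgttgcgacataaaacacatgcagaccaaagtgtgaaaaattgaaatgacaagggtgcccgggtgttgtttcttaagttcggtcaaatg

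The first window, chr1:114863040-114863339 on the minus strand, belongs to the non-coding gene Gm33042 (gene ID 102635794) in the desert between Dsel and Cntnap5a. A peak of sgRosa 1 at chr1:114862792-114863133 (−log10 p 4.462) and a peak of sgRosa 4 at chr1:114863180-114863329 (3.836) covered 244 of its bases. These peaks do not overlap each other. The second window, chr3:147968098-147968397 on the plus strand, belongs to the non-coding gene Gm40175 (gene ID 105244583) in the desert between Ttll7 and Adgrl2. Peaks of sgNr2f2 1 (chr3:147968111-147968286, −log10 p 3.539) and sgNr2f2 2 (chr3:147968098-147968247, 3.725) overlapped there and covered 189 bases. Neither window holds AGGTCA, and both pairs of peaks are weak.

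The lists differed in length, from 52369 autosomal peaks in sgNr2f2 4 to 139258 in sgRosa 4. They hold no read totals, so depth is unknown. The number of fragments per position that the peak caller expected genome-wide was recovered from the peak values. It was 4.2, 3.18, 4.284 and 2.304 in sgRosa 1 to 4 and 4.023, 3.336, 4.223 and 3.536 in sgNr2f2 1 to 4. It was thus lowest in sgRosa 4, the library with the longest list. As a check of the labelled cell type, 11 of 12 neuronal marker genes had a peak within 1 kb of a gene end in at least 1 library (Syn1 in none), with 1 to 5 markers per library. Astrocyte markers numbered 0 to 3 of 8 per library (Aqp4 and Slc1a3 in none), oligodendrocyte markers 0 to 1 of 6, microglial markers 0 to 2 of 6 and vascular markers 0 to 2 of 4. In at least 1 library, 6 of 8 astrocyte, 4 of 6 oligodendrocyte, 4 of 6 microglial and 3 of 4 vascular markers had such a peak too. The share of all genes with such a peak is not given here. Few markers of any cell type were thus detected per library, which leaves the neuronal label without a firm check in these lists.

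Across the 8 libraries together, deserts were neither richer nor poorer in peaks than the autosomes at large beyond the spread between libraries. Desert peaks made up 11.14, 9.699, 7.626 and 8.994% of the autosomal peaks in sgRosa 1 to 4, and 6.551, 8.2, 4.566 and 6.683% in sgNr2f2 1 to 4. The 95% Wilson interval was 10.9 to 11.39% for the highest share and 4.404 to 4.734% for the lowest, and covers counting error only. Against the 8.51% of length that deserts take up, 3 sgRosa libraries were above and 1 sgRosa and all 4 sgNr2f2 libraries below.

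As density, sgRosa 1 to 4 had 34.74, 29.48, 22.72 and 62.73 desert peaks per Mb, where their autosomal means were 26.53, 25.87, 25.35 and 59.35 per Mb. The sgNr2f2 libraries 1 to 4 had 33.25, 39.14, 14.1 and 17.53 desert peaks per Mb against autosomal means of 43.19, 40.62, 26.27 and 22.32 per Mb. Dividing 1 by the other removes the length of the list. The resulting density ratio was 1.309, 1.14, 0.8961 and 1.057 in sgRosa and 0.7699, 0.9635, 0.5366 and 0.7854 in sgNr2f2. Its log2 averaged −0.15 ± 0.40 (SD, n = 8), and the exact sign-flip permutation test, two-sided, gave p = 0.3672 (0.4896 adjusted over 4 tests; the smallest possible p is 0.007812).

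Deserts carried relatively fewer peaks in sgNr2f2 than in sgRosa libraries, but the difference did not pass the test. The density ratio was 1.101 ± 0.172 (SD, n = 4) in sgRosa and 0.7638 ± 0.175 (n = 4) in sgNr2f2. The groups overlapped, since sgNr2f2 2 lay above sgRosa 3. On the log2 scale the difference was −0.54, a ratio of 0.6858 between the groups. The exact permutation p, two-sided, was 0.05714 (Benjamini-Hochberg adjusted p = 0.2286 over 4 tests; 70 assignments allow 0.02857 at best). Without sgNr2f2 2, the only sgNr2f2 library above a sgRosa library, the difference was −0.67 with an exact permutation p of 0.02857. That is the smallest p this test can give without that library, reached because the groups then no longer overlap. Without sgNr2f2 3, the lowest library, it was −0.38 with an exact permutation p of 0.08571.

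**Figure D1:**
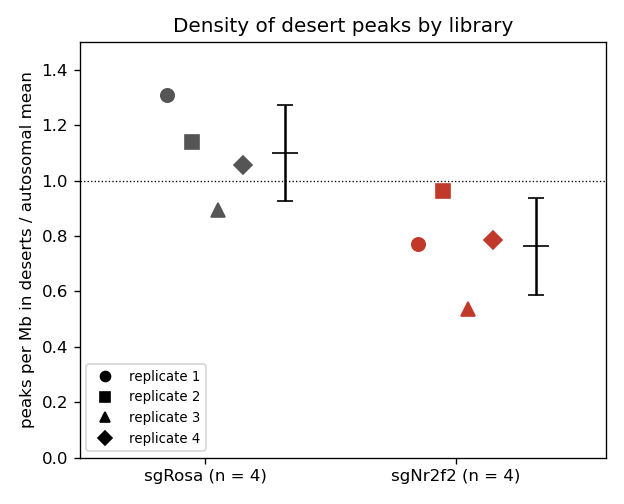
Density of desert peaks divided by the autosomal mean of the same library (vertical axis), with 1 point per library, for the sgRosa and sgNr2f2 groups; horizontal bars are group means with the SD as error bars, and the line at 1 is the autosomal mean. Libraries sgRosa 1, 2 and 4 lie above 1, and sgRosa 3 and the 4 sgNr2f2 libraries lie below it.

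The difference was of like size among stronger peaks. Counting only peaks with the authors' q under 0.05, the density ratio was 1.33, 1.138, 0.8912 and 1.101 in sgRosa 1 to 4 and 0.7719, 0.9698, 0.5605 and 0.8292 in sgNr2f2 1 to 4. The order of the libraries is the same as for all peaks. Their log2 difference was −0.52, with an exact permutation p of 0.05714.

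The group means lay closest together at 50 to 100 kb from genes (0.9656 in sgRosa and 0.9447 in sgNr2f2), with sgNr2f2 the higher nearer to genes and sgRosa the higher at every distance beyond. Within genes, the density relative to the autosomal mean was 1.028 ± 0.0618 (SD, n = 4) in sgRosa and 1.128 ± 0.0617 in sgNr2f2. Between 5 and 50 kb from a gene both groups were below the mean, at 0.888 ± 0.0349 and 0.9505 ± 0.0261. From there the sgRosa mean was higher, and the sgNr2f2 mean lower, in each class farther out, a pattern given here as a description without a test.

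At 250 to 500 kb, outside the deserts, the values were 1.034 ± 0.119 in sgRosa and 0.8439 ± 0.119 in sgNr2f2. In the desert class between 500 kb and 1 Mb they were 1.089 ± 0.172 and 0.7676 ± 0.161. Beyond 1 Mb, over 65.67 Mb, they were 1.125 ± 0.173 and 0.7562 ± 0.204. The shares of 1 library are tied to each other, so the values in and near genes are the counterpart of those in deserts and add no separate evidence. The 500 kb threshold cut no step: just outside it (450 to 500 kb) the density was 1.035 in sgRosa and 0.7981 in sgNr2f2, and just inside (500 to 550 kb) 1.063 and 0.7754.

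**Figure D2:**
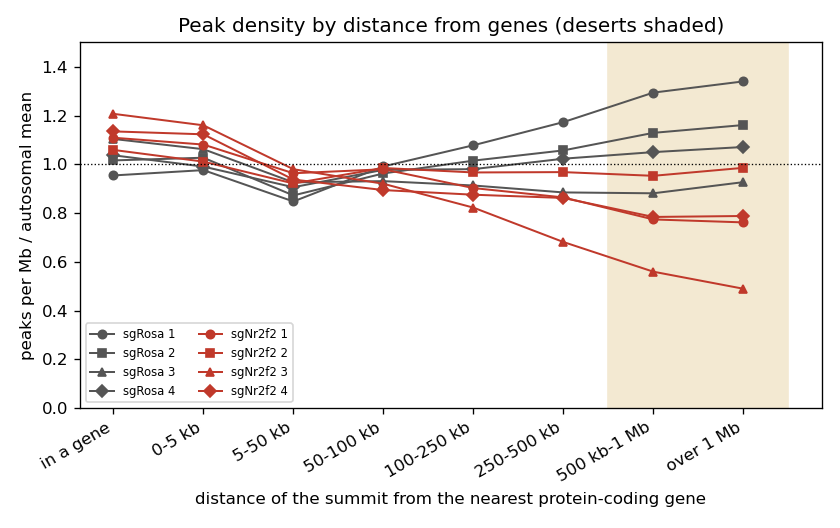
Peaks per Mb divided by the autosomal mean of the library (vertical axis) in 8 classes of distance from the nearest protein-coding gene (horizontal axis), with 1 line per library coloured by group and the desert classes shaded. The lines lie closest together at 50 to 100 kb and fan out beyond it, from 1.34 in sgRosa 1 to 0.4897 in sgNr2f2 3 beyond 1 Mb.

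The local background of the peaks moved with the density. The caller sets each peak against the genome-wide background or, where it is higher, the local one, and the peak values show which was used. A raised local background was used for 39.69, 17.45, 17.26 and 14.37% of desert peaks in sgRosa 1 to 4, and for 35.67, 17.01, 26.32 and 13.59% of the other peaks. In sgNr2f2 1 to 4 it was used for 4.819, 17.7, 2.238 and 18.23% of desert peaks, and for 16.55, 22.45, 22.54 and 33.55% of the other peaks.

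All 5 libraries with a density ratio below 1 thus had a lower share of raised background in deserts than outside, and the 3 libraries above 1 had a higher one. Among peaks called against the genome-wide background alone, the density ratio was 1.236, 1.134, 0.9965 and 1.048 in sgRosa and 0.8699, 1.017, 0.6686 and 0.9512 in sgNr2f2. The log2 difference was then −0.34, against −0.54 for all peaks, with an exact permutation p of 0.05714. The part of overall read coverage in the difference of the groups was not tested.

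**Figure D3:**
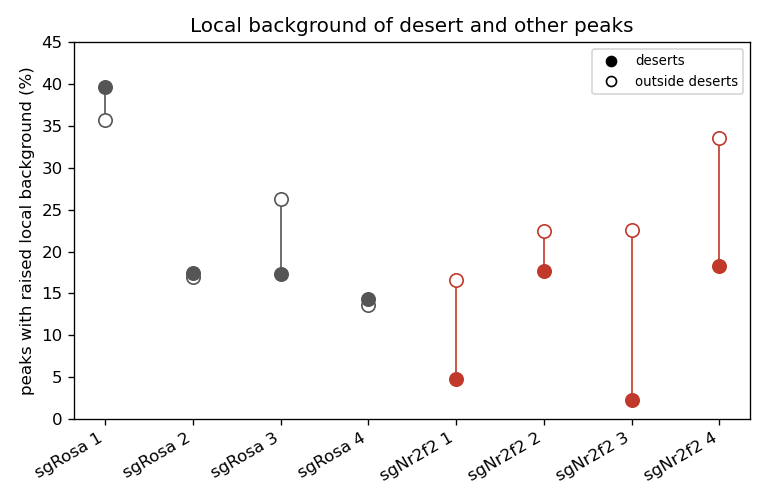
Share of peaks called against a raised local background in percent (vertical axis), for desert peaks and for peaks outside deserts in each of the 8 libraries. Desert peaks have the lower share in sgRosa 3 and in the 4 sgNr2f2 libraries, furthest in sgNr2f2 3 (2.238% against 22.54%), and sgRosa 1 has the highest in deserts (39.69%).

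The share of strong peaks in deserts did not differ from that outside by a margin that passed the test. The share of desert peaks with q under 0.05 was 18.7, 4.637, 9.281 and 7.665% in sgRosa 1 to 4 and 8.193, 5.925, 19.33 and 13.77% in sgNr2f2 1 to 4. Outside deserts the shares were 18.37, 4.647, 9.336 and 7.325%, and 8.17, 5.883, 18.46 and 12.99%. Shares thus spread from 4.637 to 19.33% between libraries, while the 2 locations differed by at most 0.8629 percentage points within a library.

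The desert share was higher by 0.2888 ± 0.361 percentage points (SD, n = 8) on average, in 6 of 8 libraries (exact two-sided sign-flip permutation p = 0.0625, adjusted p = 0.25). Without sgRosa 3 it was higher by 0.338 points (exact permutation p = 0.03125). The difference between the groups, 0.2758 points, had an exact permutation p of 0.2857 (adjusted p = 0.381). It ran from 0.1304 points without sgNr2f2 3 to 0.4105 without sgNr2f2 1, and was −0.1189 in lists of equal length. Median −log10 p was equal in deserts and outside in 6 libraries, and higher in deserts in sgRosa 3 (3.813 against 3.789) and sgNr2f2 2 (3.369 against 3.158). With the other 6 differences at 0, the test of the median could not give an exact permutation p below 0.5 and says nothing on strength. The difference of the median between the groups, 0.04678, rested on these 2 libraries (exact permutation p = 1) and became −0.005977 without sgNr2f2 2. Median fold over background, the authors' value, lay between 2.567 and 2.724 in deserts and between 2.537 and 2.724 outside. Median width was 162 to 170 bp in deserts and 163 to 171 bp outside.

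Strong peaks were few in deserts, as they were in the whole lists. With a −log10 q of at least 5 there were 18, 10, 15 and 15 desert peaks in sgRosa 1 to 4 and 16, 13, 18 and 15 in sgNr2f2 1 to 4. The whole autosomal lists held 208, 147, 210 and 171, and 185, 192, 233 and 183 of that strength. The number of strong desert peaks ran from 10 to 18 and that of all desert peaks from 2815 to 12525, and the library with the most desert peaks, sgRosa 4, had 15 strong ones.

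Recurrence was low in deserts and outside them. It was measured in lists of equal length, the 52369 strongest peaks of each library, as the share of peaks that overlap a peak of another library by at least 1 bp. Strength was −log10 p, with ties broken by fold and then at random. In deserts this share was 10.63, 10.66, 10.97 and 9.16% in sgRosa 1 to 4 and 12.95, 8.403, 13.26 and 11.03% in sgNr2f2 1 to 4. Outside deserts it was 11.22, 10.54, 10.71 and 9.269%, and 11.11, 9.54, 10.79 and 10.46%.

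The mean difference was 0.4261 ± 1.2 percentage points (SD, n = 8), higher in deserts in 5 of 8 libraries (exact sign-flip permutation p = 0.3594, adjusted p = 0.4896). It turned to −0.1241 points without sgRosa 1 and −0.0245 without sgRosa 2. Between the groups it differed by 1.017 points with an exact permutation p of 0.2857 (adjusted p = 0.381). Without sgNr2f2 2 that difference was 1.536 points with an exact permutation p of 0.02857, again the smallest p this test can give there. The recurrence of a library depends on how many desert peaks the other lists hold, so it is not a measure separate from density. Merging overlapping peaks gave 31693 desert regions, of which 30018 (94.71%) came from 1 library, close to the 94.92% of all 395153 autosomal regions. A further 1548 desert regions came from 2 libraries and 97 from 3. Only 30 were in 4 or more libraries, of 526 such regions on all autosomes. Deserts held 8.003, 8.435 and 8.11% of the autosomal regions found in 1, 2 and 3 libraries. Of those found in 4, 5, 6, 7 and 8 libraries they held 4.094, 9.375, 5.634, 6.897 and 5.556%. The shares were thus mostly lower among regions of many libraries, which rests on few regions and was not tested.

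Desert regions found in all 8 libraries numbered 9 of 162 on the autosomes (5.556%). The strongest, chr2:98666179-98667378, lies in the desert between Lrrc4c, which encodes a synaptic ligand of netrin-G, and Iftap. Its −log10 p was 2609.7, 2386.8, 2619.6 and 2432.7 in sgRosa 1 to 4 and 2417.6, 2366.2, 2857.1 and 2492.3 in sgNr2f2 1 to 4. It ranked second among all autosomal peaks in each library. A neighbour at chr2:98662172-98663030 had values between 551.8 and 797.1. This stretch of chromosome 2 is known as a site of excess reads in many mouse sequencing assays, and it was not removed here.

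The next region, chr4:28176726-28177294 in the lncRNA Gm52725, lies in the desert between Manea and Epha7, a receptor for ephrin-A guidance ligands, with −log10 p between 76.68 and 148.1. A region over the pseudogene Gm8357, chr1:48881464-48881704, was the farthest of the 9 from a gene, 1955812 bp from Slc39a10, with values of 36.19, 31.33, 34.62 and 37.73 in sgRosa 1 to 4 and 24.43, 27.32, 23.7 and 11.26 in sgNr2f2 1 to 4. Its rank within the list was 58 to 70 in sgRosa and 71 to 139 in sgNr2f2 libraries, so the groups were apart, as were those of 1.23% of all regions found in 8 libraries in that direction and 2.47% in the other. Between Man1a and Tbc1d32 the region chr10:55215088-55215294 had values between 17.89 and 41.62. Regions between Ddx18 and Dpp10 (chr1:122357080-122357313) and between Ythdf3 and Cypt12 (chr3:16891526-16891824, in the lncRNA Gm42184) ranged from 9.649 to 28.3 and from 8.846 to 19.61. The weakest were between Fbxo15 and Neto1, an auxiliary protein of kainate receptors (chr18:85697884-85698369, 4.326 to 19.97), and between Ncam2 and Mrpl39 (chr16:84016848-84017052, 6.575 to 15.03). In the 8 regions other than that over Gm8357 the ranks of the groups overlapped.

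A desert region in all 4 sgNr2f2 lists and no sgRosa list was found once, and the reverse was found 0 times. Over all autosomes 3 regions of 395153 fell in each class, which is 0.000759%. The region is chr1:145955681-145956239, 539852 bp from Brinp3, a gene expressed in neurons, in the desert between Rgs18 and Brinp3. Its −log10 p was 3.539, 4.957, 5.024 and 3.947 in sgNr2f2 1 to 4. The full list of sgRosa 4 holds a peak at the same place with a value of 2.583, so the region is exclusive only in the lists of equal length. Leaving out 1 library changed the counts, but it also loosens the rule, since fewer libraries must hold or lack a region. Counts over all autosomes are not given for these settings, so the counts that follow are not set against a background. Regions of sgRosa only numbered 4 without sgRosa 2, 2 without sgRosa 4, and 1 without sgRosa 1, sgNr2f2 3 or sgNr2f2 4. Regions of sgNr2f2 only numbered 3 without sgNr2f2 2, and 2 without sgRosa 4, sgNr2f2 3 or sgNr2f2 4.

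For single deserts, the peaks in each desert were counted per 10000 autosomal peaks and tested with limma beside stretches of at most 1 Mb of the rest of the autosomes. No desert of the 195 tested passed an adjusted p of 0.05 in either direction, and neither did any of the 2451 segments in all (0% higher and 0% lower). The smallest limma adjusted p of a desert was 0.3769. At an unadjusted p under 0.05, 41 deserts (21.03%) were lower in sgNr2f2 and 2 (1.026%) were higher, where 5.75% and 5.43% of all segments were. All segments include the deserts themselves. Deserts run to 3.542 Mb where the other segments end at 1 Mb, so the shares are not from stretches of like length. Without sgNr2f2 3, 24 of 196 deserts and 88 of all 2452 segments were lower, and without sgRosa 3, 55 of 195 deserts and 175 of all 2451 segments. In the other direction, 1 of 193 deserts and 72 of all 2449 segments were higher without sgRosa 1. Without sgNr2f2 1 these were 1 of 192 and 95 of 2447, and without sgRosa 3 they were 3 of 195 and 213 of 2451. The median log2 difference was −0.51 over deserts and 0.02 over all segments. In 14 deserts (7.179%) all 4 sgNr2f2 libraries lay below all 4 sgRosa libraries and in 0 above, against 2.82% and 2.65% of all segments. The deserts share the 8 libraries, so these counts repeat the group difference over many stretches and are no further replicates of it.

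Of the 121 deserts of at least 0.5 Mb, 110 had a lower mean density in sgNr2f2 and 11 a higher one. The mean over sgRosa libraries was above the autosomal mean in 75 of them and that over sgNr2f2 libraries in 4. Those 4 lie between Hs3st1 and Rab28, Api5 and Lrrc4c, Pom121l12 and Vstm2a, and Unc5d and Dusp26. All 19 autosomes had a lower desert density in the sgNr2f2 mean. By chromosome the density over all libraries ran from 0.6736 of the autosomal mean on chromosome 19, with 1.511 Mb of desert, to 1.082 on chromosome 3. On chromosome 3 the group means were 1.407 in sgRosa and 0.7572 in sgNr2f2, and sgRosa 1 alone reached 2.029.

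**Figure D4:**
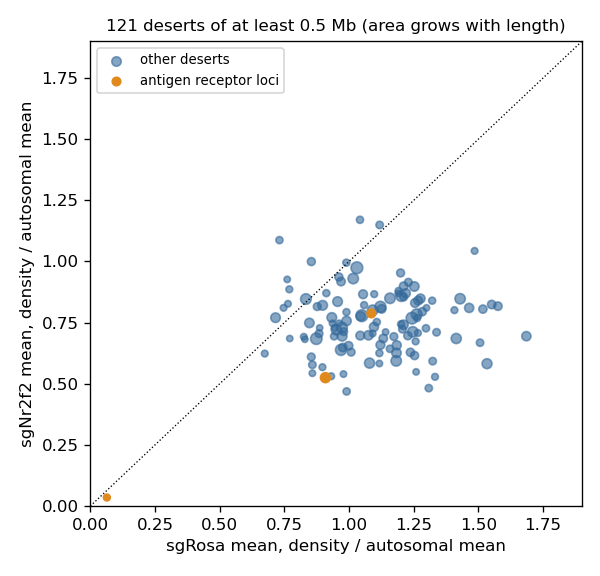
Density relative to the autosomal mean in each of the 121 deserts of at least 0.5 Mb, as the mean of 4 sgRosa libraries (horizontal axis) against the mean of 4 sgNr2f2 libraries (vertical axis); the area of a point grows with the length of the desert and the diagonal marks equal values. Points lie below the diagonal in 110 deserts and above it in 11.

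The deserts with the most peaks were long ones. Celf4, which encodes a neuronal RNA-binding protein, and Pik3c3, the lipid kinase of autophagy, border the first, chr18:26254521-29765614. It held 111, 114, 54 and 222 peaks in sgRosa 1 to 4 and 167, 148, 75 and 74 in sgNr2f2 1 to 4. That is 14.99 per 10000 autosomal peaks and a density of 1.002 times the autosomal mean. The groups did not separate there (1.03 ± 0.293 and 0.974 ± 0.125, SD, n = 4 each; limma log2 difference −0.04, SE 0.33, adjusted p = 0.9696).

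Olfm4, which encodes a secreted glycoprotein, and Pcdh17, a protocadherin, border the next, chr14:80523142-83943562. It held 105, 97, 120 and 271 peaks in sgRosa and 98, 126, 42 and 79 in sgNr2f2. Relative to the autosomal mean this was 1.243 ± 0.138 in sgRosa and 0.7681 ± 0.253 in sgNr2f2, and the groups did not overlap (limma log2 difference −0.75, SE 0.33, adjusted p = 0.4048). The desert between the protocadherin genes Pcdh20 and Pcdh9, chr14:88971397-92513699, was the longest and held 94, 100, 93 and 225 peaks in sgRosa and 113, 175, 43 and 55 in sgNr2f2. There sgNr2f2 2 had the highest density of the 8 libraries, at 1.216, and sgNr2f2 3 the lowest, at 0.462.

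The desert between Cdh6 and Cdh9, which encode type II cadherins, chr15:13676408-16228549, ranked high by number and by density. It held 151, 81, 82 and 150 peaks in sgRosa and 93, 86, 48 and 57 in sgNr2f2, a density of 1.429 ± 0.548 and 0.8474 ± 0.117. Library sgRosa 1 stood at 2.23 and the other 3 sgRosa libraries between 0.9903 and 1.267, so the spread in sgRosa is mostly that of 1 library. The limma adjusted p was 0.4295.

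Between Tenm3, a teneurin that matches synaptic partners, and Aga, a lysosomal enzyme, chr8:50022825-53011682 held 85, 92, 70 and 230 peaks in sgRosa and 101, 98, 38 and 79 in sgNr2f2. Between Dsel and Cntnap5a, a neurexin-like adhesion gene, chr1:112365053-115184736 held 156, 86, 58 and 162 peaks in sgRosa and 103, 126, 41 and 40 in sgNr2f2. This is the desert of Gm33042, whose promoter is printed above, and again sgRosa 1 stood highest, at 2.086 times its autosomal mean. Between Igfbp7 and Adgrl3, which encodes the adhesion receptor latrophilin-3, chr5:77908046-80519084 held 84, 73, 68 and 203 peaks in sgRosa and 71, 115, 46 and 59 in sgNr2f2. Between Cntnap5b and Cdh20, chr1:100990600-104268339 held 87, 67, 68 and 172 peaks in sgRosa and 75, 121, 47 and 55 in sgNr2f2. This last one was long but sparse, at 0.7787 times the autosomal mean. The groups overlapped in these 4 deserts.

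**Figure D5:**
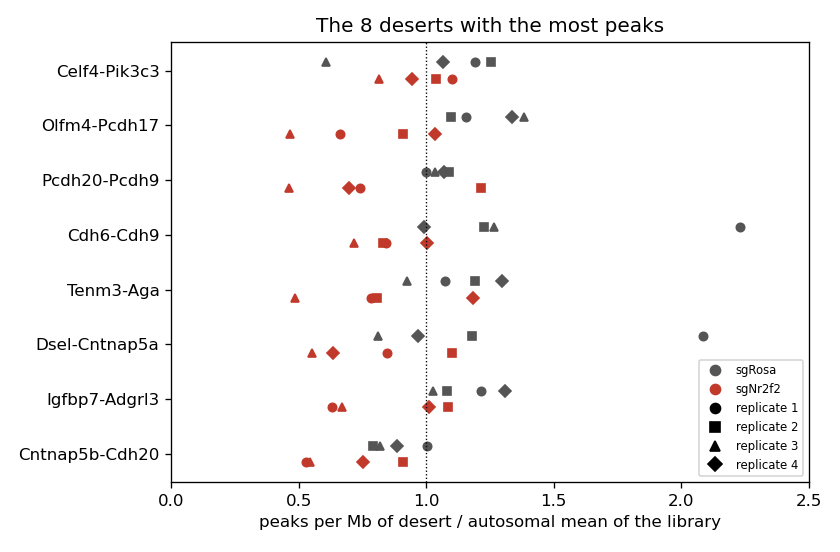
Density relative to the autosomal mean of the library (horizontal axis) in the 8 deserts with the most peaks, named by their flanking genes (vertical axis), with 1 point per library coloured by group. The groups are apart between Olfm4 and Pcdh17 and overlap in the other 7; single sgRosa points stand far right between Cdh6 and Cdh9 (2.23) and between Dsel and Cntnap5a (2.086), both from sgRosa 1.

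Among the 121 longer deserts, density relative to the autosomal mean had a median of 0.9262 and ran from 0.04942 to 1.264, and 35 were above 1. The densest lay between Pom121l12 and Vstm2a (chr11:15100317-15757741), at 1.264 ± 0.602 (SD, n = 8). Of its 219 peaks in all, 50 came from sgRosa 4 and 43 from sgRosa 1, whose shorter list made its density the highest, at 2.466. With only peaks of q under 0.05 its density was 0.5998. Then came Manea-Epha7 (chr4:26846919-28313065) at 1.196 ± 0.607 and Prmt6-Amy2b (chr3:110751000-112647655) at 1.19 ± 0.640. Adgrl2-Adgrl4 (chr3:149489097-150937881), between genes of a latrophilin and a related endothelial receptor, had 1.187 ± 0.575. Fstl5-Rapgef2 (chr3:77210011-78562510) had 1.161 ± 0.662. The spread between libraries exceeded the distance of each of these values from 1.

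Prmt6, an arginine methyltransferase gene, and Amy2b, an amylase gene, border the desert with the smallest limma p. It held 116, 81, 80 and 126 peaks in sgRosa 1 to 4 and 61, 76, 18 and 29 in sgNr2f2 1 to 4. All 4 sgRosa libraries were above all 4 sgNr2f2 libraries, at 1.685 ± 0.485 and 0.6943 ± 0.258 times the autosomal mean (limma log2 difference −1.31, SE 0.33, adjusted p = 0.3769). Since many segments were tested, it did not pass.

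The sparsest desert lay beside Dad1 on chromosome 14 (chr14:53041357-53735484), in the locus of the T-cell receptor alpha genes, with 175 annotated antigen receptor segments. It held 12 peaks over the 8 libraries, 0.04942 times the autosomal mean. The immunoglobulin heavy chain locus between Adam6a and Zfp386 (chr12:114046415-115547713) had 0.9369. Antigen receptor segments are not counted as protein-coding genes in the table, so these are deserts by the rule, though not empty of genes. Between Marcks, a membrane and actin regulator, and Rfpl4b (chr10:37638927-38320540) the density was 0.6487 ± 0.422. Between Sorcs1, a sorting receptor of neurons, and Ins1 (chr19:51179130-51764296) it was 0.7006 ± 0.434.

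The desert beside the targeted gene lies between Arrdc4 and Nr2f2 (chr7:69249239-69851945). It held 18, 15, 13 and 51 peaks in sgRosa and 16, 25, 7 and 10 in sgNr2f2. The densities were 1.091 ± 0.250 and 0.7053 ± 0.244 times the autosomal mean and overlapped between the groups (limma log2 difference −0.65, SE 0.43, adjusted p = 0.5291). Nr2f1 and Arrdc3 border chr13:78698874-80383383, with 88, 59, 34 and 90 peaks in sgRosa and 89, 46, 36 and 23 in sgNr2f2. Its densities also overlapped, at 1.255 ± 0.534 and 0.8301 ± 0.275 (limma log2 difference −0.55, SE 0.32, adjusted p = 0.4816).

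Genes for cell adhesion were common at desert borders, a feature of the genome and not of the libraries. Of 67 cadherin and protocadherin genes 17 (25.37%) bordered a desert, where 447 of all 20665 autosomal protein-coding genes (2.163%) did. Of leucine-rich repeat adhesion genes such as Slitrk5, Lrrc4c, Slitrk1 and Flrt2, which organise synapses and axons, 8 of 37 (21.62%) did. Glutamate receptor genes (Grik2, Grm7, Grm8 and Grm3 among them) gave 5 of 25 (20%), GABA-A receptor genes 2 of 16 (12.5%), and axon guidance genes such as Efna5, Efnb2 and Epha7 10 of 57 (17.54%). Developmental transcription factor genes such as Nr2f1, Bcl11a and Pou3f3 gave 15 of 181 (8.287%), and potassium channel genes such as Kcnt2, Kcnv1 and Kcnd2 5 of 91 (5.495%). None of 1467 chemosensory receptor genes, which lie in dense clusters, bordered one.

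Peak density in these deserts lay near that of deserts in general. The median relative density was 0.9391 in 16 cadherin deserts of at least 0.5 Mb, 0.9661 in 9 leucine-rich repeat deserts, 0.9023 in 8 axon guidance deserts, 0.9043 in 5 potassium channel deserts and 0.9921 in 7 transcription factor deserts. The median of all 121 was 0.9262. Cadherin deserts had a median of 1.209 in sgRosa and 0.7112 in sgNr2f2, and 16 of 16 had the lower mean in sgNr2f2. Over all 121 the medians were 1.096 and 0.7469, with 110 lower. Axon guidance deserts had closer medians, 0.9337 and 0.8264, with 7 of 8 lower. No difference between these classes was tested.

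Libraries differed in which deserts were dense. Over the 121 deserts, the rank correlation of relative density between 2 libraries had a median of 0.09727 within groups (12 pairs, 0.007269 to 0.2961). Between groups the median was 0.07525 (16 pairs, −0.127 to 0.1594). The points share the genome's mappability and base composition. Libraries left 3 to 24 of the 242 deserts without any peak.

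Desert peaks fell in non-coding genes about as often as the length of these genes would give. Non-coding genes cover 9.853% of the desert length, and 9.593 ± 0.688% (SD, n = 8) of desert peaks had their summit in one, from 8.799 to 10.94%, above the share of length in 2 of 8 libraries. The deserts hold 19 annotated miRNA hairpins. A peak lay within 1 kb of 8 of them in some library, in at most 2 libraries each, and 1 hairpin was overlapped by a peak. The 8 lists together held 253.7 peaks per Mb of desert. The share of desert positions this near to a peak was not counted, so the hairpins are not set against a background.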

How the data were processed

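ATAC-seq peaks of 4 sgRosa and 4 sgNr2f2 libraries were analysed. Sample titles gave the group and number of each library. The deposited lists are MACS2 narrowPeak files in mm10 coordinates, 1 per library. Per the submitters' processing notes, MACS2 2.2.9.1 was used beside fastp 0.23.2, Picard, HOMER 4.10, FastQC 0.11.9, DiffBind 3.10.0 and MultiQC 1.11. The aligner, duplicate handling, Tn5 shift and calling options are not given in the sources used here. Each deposited line holds the authors' integer score, fold enrichment as a ratio over background, −log10 p and −log10 q, and the summit offset. The −log10 p and fold values are not scaled between libraries, so they were compared only within a list, except where a region's values are set side by side.

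Lines of 1 interval were collapsed to the summit with the highest −log10 p. Deserts were built from RefSeq genes on GRCm38.p6 (mm10), with every autosomal protein-coding gene ending a desert. Sequence considered runs from 6 Mb to the last gene or peak of a chromosome. Density ratios, strength and recurrence were compared over libraries by two-sided exact permutation (256 sign patterns, or 70 assignments), with Benjamini-Hochberg adjustment within 4 tests. Single deserts were tested with limma 3.58.1 (trend, log2 of peaks plus 0.5 per 10000, segments with a mean of at least 5 peaks) in R 4.3.3. Pileup and background were solved from fold and −log10 p, with 1 added to both in the fold and a Poisson tail for p, which succeeded for at least 99.97% of peaks within a tolerance of 1e-04; a background more than 0.5% above the library's most frequent one counts as raised. The calculations were tested on simulated lists. Other steps ran in Python 3.11.15 with scipy 1.17.1, numpy 2.4.6, matplotlib 3.10.9 and pandas 2.3.3.

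Named deserts are the 8 with the most peaks, the 6 densest and 4 sparsest of at least 0.5 Mb, and those beside Nr2f2 or Nr2f1. Up to 10 deserts per direction past the limma threshold would have been named too. Named regions are those in all 8 libraries, up to 10, and those that all 4 libraries of 1 group and no library of the other hold. Up to 4 genes per flanking class are named, those beside the deserts with most peaks. Some deserts and genes that these rules select are not reported here. Other names were chosen after their values were seen. The members and lists were chosen with earlier results of these data known. Alternatives tried were each library left out, lists of equal length or full lists, stricter thresholds, other distances, other genes ending a desert, other overlaps, windows without peaks left out, every deposited line, and limma settings. Peaks on X, and sequences of the desert regions themselves, were not used in the comparisons.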

Additional observations from a re-analysis of the deposited data

Results flagged for a closer look

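In 2 libraries the median −log10 p of desert peaks lay above that of the other peaks and far from the rest of their group: the difference was 0.211 in sgNr2f2 2 and 0.02391 in sgRosa 3, and 0 in the remaining libraries. Raised local background in deserts stood apart in sgRosa 1, at 39.69% of desert peaks against 14.37 to 17.45% in the other sgRosa libraries. Chance marks about 1 in 20 groups of 4 in this way, and with most values tied at 0 any single difference is marked.

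The X chromosome, which the comparisons do not use, has 22 deserts by the same rule (12.94 Mb, 7.851% of its length) and these held 118 peaks over the 8 lists. By library they held 2, 7, 4 and 68 in sgRosa 1 to 4 and 6, 27, 1 and 3 in sgNr2f2 1 to 4. Their density relative to the whole X was 0.4899, 1.189, 0.772 and 0.9667 in sgRosa and 0.6588, 1.131, 0.2654 and 0.5879 in sgNr2f2, and the groups overlapped. The whole X held only 48 to 896 peaks per library, against 52369 to 139258 on the autosomes, so these ratios rest on few peaks.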

How the results depend on the processing

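Of 180 alternatives of the main results, 152 kept direction and side of the threshold or, for counts of regions and deserts, the same number. Leaving out 1 library moved the log2 density difference between groups from −0.67 (without sgNr2f2 2) to −0.38 (without sgNr2f2 3). The exact permutation p without sgNr2f2 2 was 0.02857, the smallest possible there. The log2 density of all libraries moved from −0.22 to −0.04. Alternatives other than leaving out a library left the group p at 0.05714, except non-coding genes ending a desert too (−0.64, exact permutation p = 0.1429) and the replicate block. The permutation test with the replicate block cannot give a p as low as 0.05714. Recurrence relative to the rest ranged from −0.1241 to 0.6462 points, turning negative without sgRosa 1 and without sgRosa 2 (−0.0245), and its group difference from 0.623 to 1.536 (1.952 among the strongest 5000 peaks, exact permutation p = 0.05714). The q share ranged from 0.2068 to 0.338 points (exact permutation p = 0.03125 without sgRosa 3), and the median −log10 p between groups from −0.005977 (without sgNr2f2 2) to 0.06437. With 1 library left out, which loosens the rule, regions of sgNr2f2 only numbered 1 to 3 and of sgRosa only 0 to 4.

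The group difference of the q share was −0.1189 points in lists of equal length. Among the strongest 5000 peaks, recurrence relative to the rest was −1.107 points. Beyond 1 Mb the median −log10 p between groups was −0.00382. With every gene ending a desert, which leaves 12 deserts of 2.328 Mb, the q share was −0.7021 points, the median −0.0131 and recurrence 4.446 points (exact permutation p = 0.03125). With antigen receptor segments ending a desert, chosen after seeing the data as was the genome-wide background, the q share was 0.2949 points (exact permutation p = 0.03906). Regions of sgNr2f2 only numbered 2 beyond 250 kb and 0 in full lists, beyond 1 Mb, with every gene ending a desert, and by summits within 100 bp. Counts over all autosomes are not given for these settings. Causes were not tested.

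Same-numbered libraries deviated together with correlations of 0.102, 0.0211, 0.192 and 0.0103, and 3 of 8 libraries correlated best with their own number. The labels do not say what the number stands for, and whether same-numbered libraries were handled together was not tested. With the replicate block, limma called 1 of 195 deserts lower (and of all 2451 segments no other), that between Pabpc4l and Pcdh18 (limma adjusted p = 0.04778). The density difference with the block was −0.54 (exact permutation p = 0.125). That is the smallest p this test can give, reached because the sgNr2f2 library was the lower one in every pair.

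Depth is unknown, and peaks mostly appear in 1 library, so single deserts are imprecise.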
